A study of Mus musculus with 6 samples.

Results

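Transcripts of 10 transcription factors that hold B cell and germinal centre identity were followed in sorted germinal centre B cells: Ebf1, Pax5, Tcf3, Foxo1, Spib, Irf8, Mef2b, Mef2c, Pou2af1 and Bach2. The genes were chosen by name for their known roles, and all 10 had a row among the 15861 genes of the deposited count table. RNA with poly(A) tails came from mouse B220+ GL7+ FAS+ cells, with 1 library per mouse and 3 mice, described as littermates, in each group. The WT group carried the genotype Lsd1 f/f on C57BL/6, that is floxed Lsd1 alleles and no Cre. The KO group carried Cgamma-cre+/- together with the same Lsd1 f/f alleles, so floxed alleles were shared by both groups and Cre was in the KO group only. Cgamma-cre is driven from an immunoglobulin gamma constant region locus, which is transcribed in activated B cells, and a group with Cre but no floxed alleles was not analysed here. Lsd1 is the older name of Kdm1a, a histone demethylase gene, and the comparison asks whether these identity factors change when it is deleted in germinal centre B cells. The sources used here give neither the age of the mice nor an immunisation.

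Commitment to the B lineage depends on a network in which the E protein encoded by Tcf3 and FOXO1 help to switch on Ebf1, and EBF1 in turn switches on Pax5. PAX5 then activates genes of the B cell receptor complex and holds genes of other lineages silent. In the germinal centre, further factors act on this base: MEF2B and MEF2C, IRF8 and the Ets factor SPIB, the octamer coactivator encoded by Pou2af1, and BACH2, which delays plasma cell differentiation by repressing Prdm1.

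The WT libraries held 3.39 to 5.52 M counts and the KO libraries 12.3 to 14.3 M, so genotype and depth cannot be told apart, and thinning every library to the smallest total called 0 of the factors (edgeR). Kdm1a was read at 134, 85.2 and 92.6 CPM (counts scaled to a fixed library total, with TMM factors) in WT 1 to 3 and at 81.9, 33 and 21.8 in KO 1 to 3, so the library labelled KO 1 lay close to the lowest WT library. Counts are per gene and not limited to the floxed exons. In these bulk libraries fewer cells of a type and less RNA per cell cannot be told apart. As a check of the sorted cell type, the 11 B cell markers summed to 15900 to 20100 CPM over the 6 libraries, and the 13 germinal centre markers to between 4580 and 5150 CPM (WT) or 2970 and 4390 CPM (KO). The 14 T cell markers summed to 199 to 272 CPM (WT) or 153 to 208 CPM (KO), most of it Lck, a kinase gene read at 139 to 255 CPM. Cd4 reached 152 counts in KO 3, and Cd3d and Cd3g had at most 15 counts. The sum over 24 macrophage and dendritic cell markers was 1280, 2660 and 4940 CPM in WT, against 919, 982 and 5220 CPM in KO, so WT 3 and KO 3 held the most in their groups.

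All 10 factors matched RefSeq start sites on GRCm38.p6, with 14 windows of 250 bases before a start site. Both strands were searched for 9 motifs. The share of all 32851 such windows holding a match was 1.6% for the octamer ATTTGCAT, 2.3% for the Ets and IRF composite element, 0.779% for the EBF1 site, 17.2% and 13% for the E-boxes CAGGTG and CAGCTG, 3.17% for the FOXO site GTAAACA, 6.75% for TGANTCA (the core of AP-1 and MAF sites), 23.3% for the Ets core GAGGAA and 2.98% for the interferon response element. The 3 windows printed here are shown because each holds a match to the site of another factor of the set at a motif rare among all windows. They are written 5′ to 3′ on the gene's strand, with the match in capitals.
Mef2b, chr8:70152511-70152760, plus strand, octamer on the opposite strand at -85: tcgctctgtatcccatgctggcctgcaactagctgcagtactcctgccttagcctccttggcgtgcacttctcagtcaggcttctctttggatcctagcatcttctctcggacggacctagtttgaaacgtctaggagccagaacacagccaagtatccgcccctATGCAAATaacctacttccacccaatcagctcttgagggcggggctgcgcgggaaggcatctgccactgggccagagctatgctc
Foxo1, chr3:52268087-52268335, plus strand, EBF1 site at -92, without the base that lies in an annotated exon: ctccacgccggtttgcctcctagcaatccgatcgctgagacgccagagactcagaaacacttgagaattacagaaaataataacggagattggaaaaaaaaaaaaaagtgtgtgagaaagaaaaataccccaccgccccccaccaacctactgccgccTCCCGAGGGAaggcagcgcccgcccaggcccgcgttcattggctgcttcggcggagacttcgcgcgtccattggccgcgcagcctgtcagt
Bach2, chr4:32417185-32417434, plus strand, start site inside the gene, composite element on the opposite strand at -17: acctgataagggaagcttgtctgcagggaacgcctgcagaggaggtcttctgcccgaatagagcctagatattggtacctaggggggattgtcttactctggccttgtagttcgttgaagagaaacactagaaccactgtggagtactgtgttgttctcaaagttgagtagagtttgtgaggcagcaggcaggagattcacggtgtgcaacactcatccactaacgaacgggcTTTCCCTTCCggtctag
Positions are those of the leftmost matched base as printed, counted back from the start site. None of these matches overlapped a match to another of the motifs searched. The octamer is bound by POU2F1 and POU2F2, with which the Pou2af1 product acts, and the composite element is bound by SPIB or PU.1 together with IRF8 or IRF4. Each of these motifs was found in 1 of the 14 windows. A match is a run of letters and is not shown to be a binding site.

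None of the factors passed the test over all genes. Kdm1a, the deleted gene, did not pass it either (log2 fold change -1.19, SE 0.5, edgeR adjusted p = 0.393). Of the 10 factors 9 passed the filter on low counts, and 0 of these 9 had an adjusted p under 0.05, beside 0.0824% of the 10926 genes tested (edgeR quasi-likelihood test with Benjamini-Hochberg adjustment). The background was 0.0732% for genes higher in KO and 0.00915% for genes lower. DESeq2 and limma-voom called 0 of the 9 as well. At an unadjusted p under 0.05 there were also 0, beside 12.6% of all genes tested, made up of 7.10% higher in KO and 5.50% lower. Log2 fold changes, KO over WT, ran from -0.34 to 0.30, with 5 above 0 and 4 below and a median of 0.09, against a median of 0.01 over all genes. All 9 were under 0.5 in size, as were 76.4% of all genes tested. The 95% intervals of the 9 factors, each taken singly, lay between 0.545-fold and 1.91-fold, so each of them left out a halving and a doubling at this model's error. The plot of values by library shows overlapping groups for 8 of the 9.

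**Figure D1:**
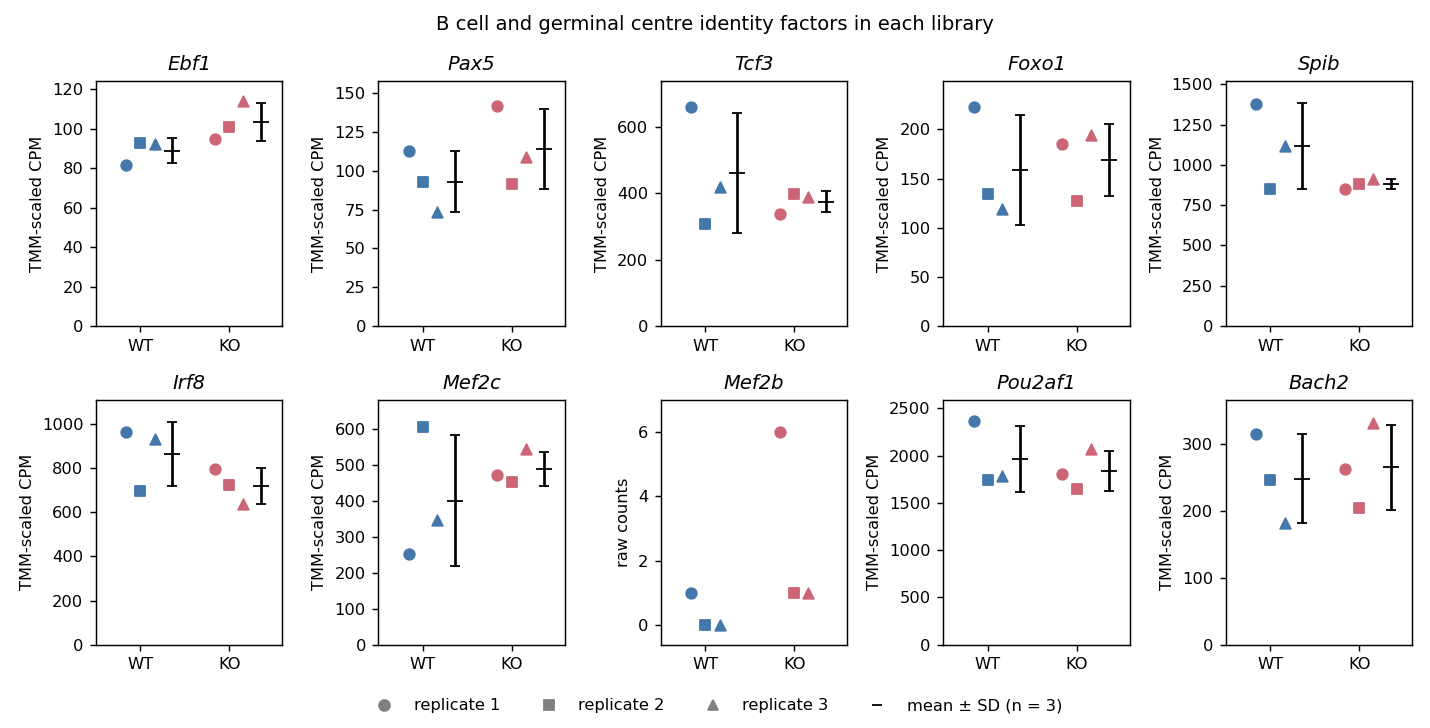
Each panel plots 1 factor in the 6 libraries, as TMM-scaled CPM on a linear axis from 0 (Mef2b as raw counts), with circles, squares and triangles for replicates 1, 2 and 3 and bars for the mean ± SD of 3 libraries. Ebf1 is the only factor of the 9 with all KO points above all WT points, and Mef2b has at most 6 counts.

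Ebf1, the pioneer factor that opens B lineage chromatin, was read at 81.7, 92.7 and 92.3 CPM in WT and at 95, 101 and 114 CPM in KO. All KO libraries were above all WT libraries, by a small margin. It was the 1 factor of 9 whose groups did not overlap, beside 18.0% of all genes tested (10% higher in KO, 7.95% lower), and with DESeq2 size factors they did overlap. The log2 fold change was 0.22 (SE 0.19, edgeR adjusted p = 0.679). Its spread within groups, 0.119 on the log2 scale, was smaller than that of most genes, at the 96.8th percentile from the most to the least variable. Ebf1 lies on chromosome 11 (44617317 to 45008091, plus strand, mm10).

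Pax5, which commits cells to the B lineage, was read at 113, 92.5 and 73.6 CPM in WT and at 142, 91.3 and 109 CPM in KO. KO 1 was the highest of the 6, and the other KO libraries lay within the WT range. On the log2 scale the change was 0.30 (SE 0.24, edgeR adjusted p = 0.642) and was 0.10 without KO 1. Pax5 lies on chromosome 4 (44524757 to 44710487, minus strand), where 636 exonic bases are shared with an unnamed transcript on the other strand that had 14 to 119 counts.

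Tcf3, which encodes the E proteins E12 and E47, was read at 659, 307 and 418 CPM in WT and at 339, 398 and 388 CPM in KO. The WT libraries spread over 2.14-fold and the KO libraries over 1.18-fold, with every KO value inside the WT range. Its fitted log2 change of -0.30 (SE 0.26, edgeR adjusted p = 0.68) was 0.02 without WT 1.

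Foxo1, a forkhead factor that maintains the germinal centre dark zone and is switched off by PI3 kinase signalling, was read at 223, 134 and 119 CPM in WT and at 185, 127 and 194 CPM in KO. The groups overlapped throughout, with WT 1 highest and WT 3 lowest. The log2 fold change was 0.09 (SE 0.27, edgeR adjusted p = 0.934).

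Spib, an Ets factor of B cells related to PU.1, was read at 1380, 849 and 1120 CPM in WT and at 848, 884 and 912 CPM in KO. The KO libraries lay at or below the lower part of the WT range and spread over only 1.08-fold. The log2 fold change, -0.34 (SE 0.22), had the smallest p of the set (unadjusted p = 0.148, adjusted p = 0.545, edgeR) and was -0.18 without WT 1 and -0.51 without WT 2.

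Irf8, which works with Ets factors at composite elements, was read at 966, 698 and 935 CPM in WT and at 799, 723 and 639 CPM in KO. WT 2 lay inside the KO range and the other WT libraries above it. On the log2 scale the change was -0.27 (SE 0.21, edgeR adjusted p = 0.637), and it stayed below 0 in all 17 alternatives, from -0.40 to -0.13. Irf8, Spib and Mef2c are also expressed in macrophages or dendritic cells. The part of such cells in the levels of Irf8, Spib and Mef2c was not tested. Plasmacytoid dendritic cell markers, 11 genes, summed to between 104 and 169 CPM (WT) or 140 and 189 CPM (KO), and the defining marker Siglech had at most 9 counts. Without WT 3 and KO 3 the log2 fold changes were -0.13 for Irf8, -0.37 for Spib and 0.10 for Mef2c. That fit did not even out macrophage and dendritic cell markers between the groups. Their median log2 fold change was -2.11 in it, against -0.23 with all 6 libraries.

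Mef2c, a MADS box factor that responds to calcium and p38 signalling downstream of the B cell receptor, was read at 251, 604 and 345 CPM in WT and at 471, 452 and 543 CPM in KO. The WT libraries spread over 2.41-fold, the most of the 9, around a KO range of 1.20-fold. Its fitted log2 change of 0.29 (SE 0.29, edgeR adjusted p = 0.735) ran from 0.03 without WT 1 to 0.71 without WT 2.

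Mef2b, a MADS box factor known as highly expressed in germinal centre B cells, was close to absent from the table. It had 1, 0 and 0 counts in WT and 6, 1 and 1 counts in KO, while a count of 0 allows up to 0.586 CPM in WT 2 and 0.935 CPM in WT 3. The pooled counts, 1 against 8, gave a ratio of 2.55 after division by the group totals, with a 95% exact interval of 0.342 to 113, which covers counting error only, so no difference was detectable at this depth. In GENCODE the gene spans chromosome 8, 70139711 to 70167488, and shares 62 exonic bases with Borcs8 on the same strand, whereas the RefSeq start site used above lies at 70152761. Borcs8 had 365 to 1311 counts. For the annotation and reads shared by genes the treatment is not given in the sources used here, and its part in the low Mef2b count was not tested.

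Pou2af1, the octamer coactivator needed for germinal centre formation, was read at 2370, 1740 and 1780 CPM in WT and at 1800, 1650 and 2070 CPM in KO. It was among the most abundant genes of the table, at the top 0.284% of genes tested by mean CPM. The log2 fold change was -0.09 (SE 0.22, edgeR adjusted p = 0.909), with a fold interval of 0.675 to 1.30.

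Bach2, the repressor that holds back Prdm1, was read at 315, 247 and 182 CPM in WT and at 262, 204 and 331 CPM in KO. The groups overlapped, with WT 3 lowest and KO 3 highest. On the log2 scale the change was 0.10 (SE 0.25, edgeR adjusted p = 0.919), but -0.28 without WT 3 and KO 3.

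**Figure D2:**
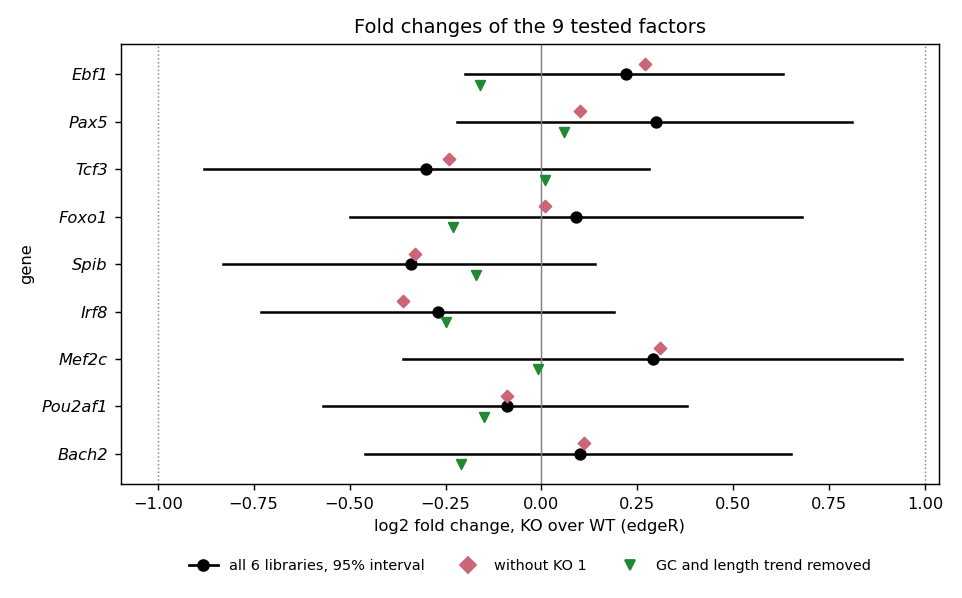
Horizontal axis, log2 fold change KO over WT for the 9 tested factors, with black points and lines for all 6 libraries and their 95% intervals, diamonds for the fit without KO 1 and triangles for the fit with the GC and length trend removed; dotted lines mark a log2 change of -1 and 1. Every interval crosses 0 and stays between the dotted lines, and 5 of the 9 triangles lie on the other side of 0 from the black point.

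Per kilobase of merged exon, levels fell into steps. Merged exons can be longer than a transcript: Mef2c has 15715 merged bases and a longest transcript of 6277, and Irf8 7055 and 3469. The order with transcript lengths in place of merged exons was not tested. Means over the 6 libraries were 746 CPM per kilobase for Pou2af1, 348 for Spib, 112 for Irf8, 103 for Tcf3, 28.3 for Mef2c, 25.8 for Bach2, 18.9 for Foxo1, 11.7 for Pax5, 9.86 for Ebf1 and 0.102 for Mef2b. Pou2af1 exceeded Spib, and Spib exceeded Irf8, in 6 of 6 libraries. Irf8 exceeded Tcf3 in only 4 of 6, Mef2c exceeded Bach2 in 5 of 6 and Pax5 exceeded Ebf1 in 4 of 6. On this measure the order of these neighbours thus varied between libraries. Per merged kilobase Ebf1 and Pax5, the factors that commit cells to the lineage, had the lowest levels of the 9 tested genes. The coactivator gene had the highest.

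WT 1 and WT 2 differed in opposite directions for the factors with the most and the least GC in their transcripts, and WT 3 did not show this order. WT 1 had the highest WT value for 7 of the 9 factors and the lowest for the other 2, Ebf1 and Mef2c. These 2 have the lowest GC content in their longest transcript, 43.1% and 40.8%, against 61.0% for Tcf3 and 54.9% for Spib. Relative to the WT mean, Tcf3 was higher by 0.58 log2 units in WT 1 and stood at -0.51 in WT 2, while Mef2c stood at -0.58 in WT 1 and 0.69 in WT 2. In WT 3 they stood at -0.07 and -0.12, and the lowest factors there were Bach2 (-0.41) and Foxo1 (-0.36), of middle GC content. Across 10747 genes, which are not independent replicates, each library's deviation was compared with GC content by Spearman correlation. The correlation was 0.62 in WT 1, -0.5 in WT 2 and 0.44 in WT 3, and -0.21 to -0.28 in the KO libraries. With transcript length it was -0.07, -0.13 and -0.33 in WT 1 to 3, and 0.33, -0.18 and 0.41 in KO 1 to 3. With a smooth trend on GC content and length removed from each library, a fit added after the data were seen, the spread within groups was smaller for 7 of 9 factors. For Mef2c it went from 0.464 to 0.150 and for Tcf3 from 0.401 to 0.283 on the log2 scale, while for Ebf1 it grew from 0.119 to 0.233. The log2 fold changes were then 0.01 for Tcf3, -0.01 for Mef2c, -0.16 for Ebf1, -0.21 for Bach2 and -0.23 for Foxo1. Each of these had the opposite sign to the fit without the correction, and 0 of 9 passed (edgeR, lowest adjusted p = 0.542). Values given below for relatives, partners and gene lists are without this correction, and the part of GC content and length in them was not tested.

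**Figure D3:**
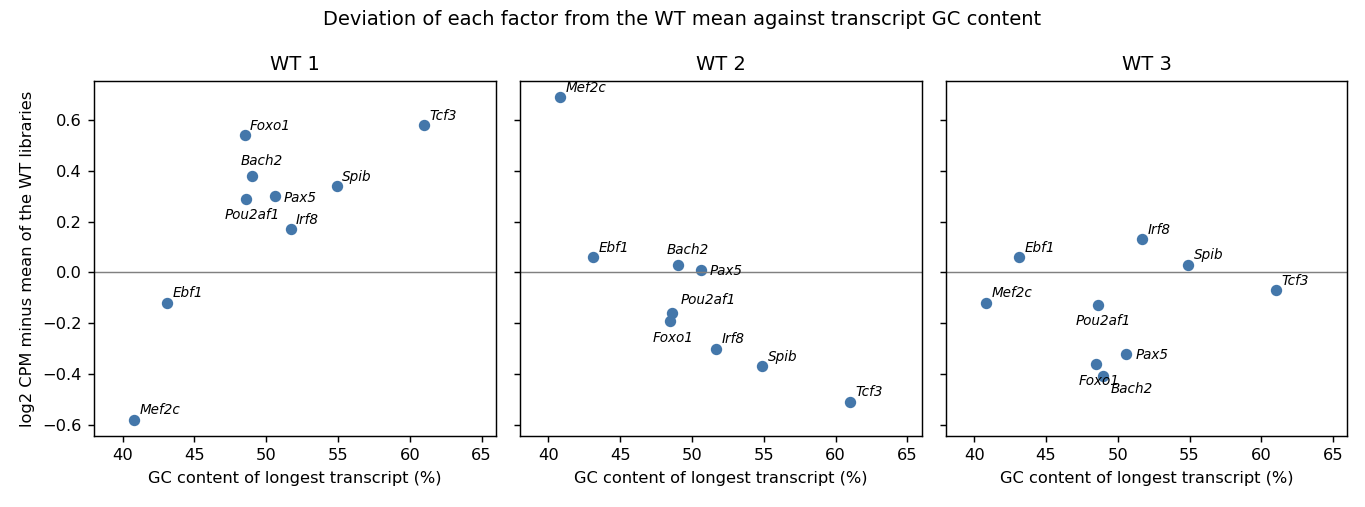
Each panel is 1 WT library, with the GC content of each factor's longest transcript in percent on the horizontal axis and log2 CPM minus the mean of the 3 WT libraries on the vertical axis, 1 point per tested factor. Tcf3 and Mef2c lie at opposite ends in WT 1 (0.58 and -0.58) and change places in WT 2 (-0.51 and 0.69). In WT 3 they lie close together (-0.07 and -0.12).

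The profile of each factor over the 6 libraries had close matches elsewhere in the table. Likeness was measured as the root mean square difference of centred log2 CPM over the 6 libraries. For Spib the nearest genes were Ppp6r1 (0.0414) and Usf2 (0.0473), for Irf8 Stk24 (0.0258) and Flad1 (0.0326), and for Pax5 Cnot4 (0.0575) and Papss1 (0.0625). Among the factors the closest pairs were Bach2 with Foxo1 (0.139), Tcf3 with Spib (0.141) and Irf8 with Spib (0.151), and the most distant was Tcf3 with Mef2c (0.756). The libraries also share depth and the GC trend given above, whose part in these values was not tested.

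Among relatives of the factors, 8 of 15 tested genes had a log2 fold change under 0.5 in size, a smaller share than the 76.4% of all genes tested. Of 22 family members listed, 15 were tested and 0 passed over all genes (edgeR), with 5 at an unadjusted p under 0.05, 3 higher and 2 lower, beside 12.6% of all genes. Irf4, whose product also binds composite elements and is needed for plasma cells, had levels of 46.7, 30.5 and 34.3 CPM in WT and 104, 49.3 and 85.5 CPM in KO (log2 fold change 1.10, SE 0.29, edgeR adjusted p = 0.213). Its groups did not overlap, and the value was 0.85 without KO 1. Mef2a, the third MADS box relative, was read at 39.9, 76.6 and 56.7 CPM in WT and 80.4, 84.2 and 106 CPM in KO (0.64, SE 0.25, edgeR adjusted p = 0.334). Spi1, which encodes PU.1, had a fitted log2 change of -0.61 (SE 0.27). Irf3, a transcription factor gene of the IRF family, had one of -0.49 (SE 0.21), and neither gene passed. Tcf12, the other E protein gene tested and named after its values were seen, was read at 58.3, 61.6 and 61.1 CPM in WT and 82.3, 82.4 and 85.6 CPM in KO (0.47, SE 0.18, edgeR adjusted p = 0.334). Its libraries hardly varied within either group.

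Of 22 binding partners and inhibitors, 20 were tested and 0 passed (edgeR), with 3 at an unadjusted p under 0.05, beside 12.6% of all genes. Pou2f1, an octamer-binding partner of the Pou2af1 product, was read at 35.7, 50.2 and 30.5 CPM in WT and 77.5, 54.4 and 92.4 CPM in KO (log2 fold change 0.94, SE 0.27, edgeR adjusted p = 0.232). All KO libraries lay above all WT libraries, by the narrowest margin in KO 2. Pou2f2, the B cell octamer factor, had a fitted log2 change of 0.13 (SE 0.25). Id3, which sequesters E proteins, was read at 122, 113 and 132 CPM in WT and 42.5, 104 and 64.8 CPM in KO (-0.79, SE 0.29, edgeR adjusted p = 0.313). KO 2 again lay nearest to WT, and the log2 fold change was -0.54 without KO 1 and -1.18 without KO 2. Rbbp4, a histone-binding subunit of corepressor complexes, had a fitted log2 change of -0.61 (SE 0.21), and Ncor1, a corepressor gene, one of 0.42 (SE 0.21). Among 16 tested genes of other B lineage transcription factors 0 passed (edgeR), 11 were above 0 and 2 had an unadjusted p under 0.05. Klf3, a Krüppel-like repressor, was read at 1.25 to 2.89 CPM in WT and 12.2, 4.16 and 5.65 CPM in KO (1.94, SE 0.54), and Zfp318 at 5.30 to 6.30 CPM in WT and 27.1, 9.03 and 8.51 CPM in KO (1.33, SE 0.47). Both were highest in KO 1, and without it their log2 fold changes were 1.36 and 0.57. Stat6 (-0.22, SE 0.20) and Nfatc1 (-0.11, SE 0.28, but 0.18 without WT 1) had the smallest p of those below 0.

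Ratios of 2 genes within a library do not depend on scaling between libraries, and 9 were fixed. With 3 libraries against 3, the exact two-sided permutation test cannot give a p under 0.1, and the lowest p adjusted over the 9 was 0.3, so none could pass. The log2 ratio of Irf8 to Irf4 counts was 4.36, 4.51 and 4.76 in WT and 2.94, 3.87 and 2.90 in KO, a difference of -1.31 between means (exact permutation p = 0.1). All KO libraries lay below all WT libraries, and the difference was -1.16 without KO 1. For Bach2 to Prdm1 the ratio was 6.18, 6.26 and 6.73 in WT and 3.28, 5.99 and 4.53 in KO, a difference of -1.79 (exact permutation p = 0.1) that was -1.13 without KO 1. Prdm1 has as few as 5 counts in a WT library, and KO 2 lay close to WT. For Pax5 to Prdm1 the difference was -1.60 (exact permutation p = 0.2), or -1.11 without KO 1, and KO 2 lay inside the WT range. Bach2 relative to its relative Bach1, whose product shares its DNA site, was 5.08, 5.38 and 5.44 in WT and 4.90, 4.51 and 4.72 in KO, a difference of -0.59 (exact permutation p = 0.1). The groups did not overlap for this ratio, with as few as 13 counts of Bach1 in a WT library. Differences were 0.65 for Tcf3 to Id3, 0.30 for Spib to Spi1, -0.21 for Pou2af1 to Pou2f2 and -0.39 for Foxo1 to Foxo3, all with overlapping groups. Single libraries moved them: with each left out in turn they ran from 0.41 (without KO 1) to 0.95 (without WT 1) for Tcf3 to Id3, from 0.12 (without KO 1) to 0.51 (without KO 2) for Spib to Spi1, from -0.34 (without KO 2) to -0.09 (without KO 1) for Pou2af1 to Pou2f2, and from -0.54 (without KO 1) to -0.29 (without KO 3) for Foxo1 to Foxo3. The ratio of Mef2b to Mef2c, -0.41 with an exact permutation p of 0.7, rests on the 0 to 6 counts of Mef2b.

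**Figure D4:**
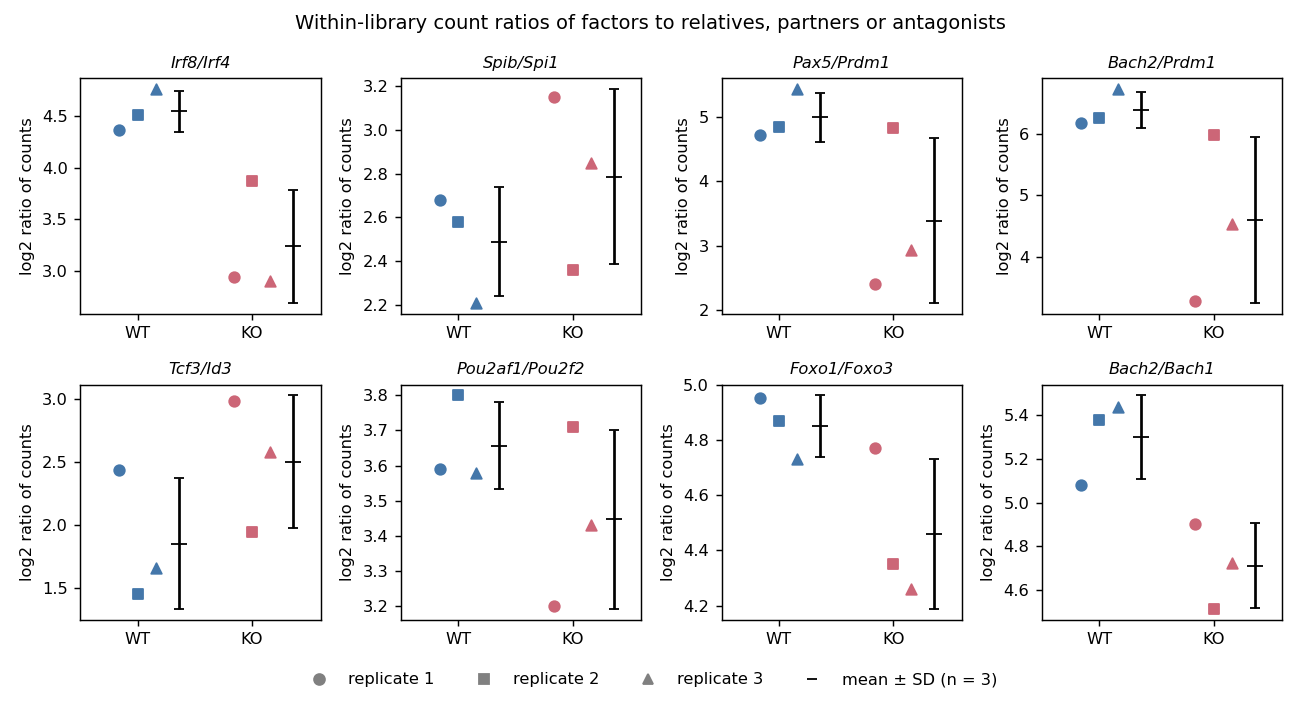
Vertical axes give the log2 ratio of raw counts (0.5 added to each) of a factor to a relative, partner or antagonist in the same library, with symbols for replicates 1, 2 and 3 and bars for the mean ± SD of 3 libraries; the axes do not start at 0. The KO points lie below all WT points for Irf8/Irf4, Bach2/Prdm1 and Bach2/Bach1, and KO 2 lies nearest to WT in the first pair of these.

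Genes downstream of the factors were read from lists of known targets, chosen with earlier results of these data known, and no gene of any list passed over all genes (edgeR). Over all genes tested, 51.3% had a log2 fold change above 0 and the median was 0.01. An unadjusted p under 0.05 was found for 12.6% of them, and groups that did not overlap for 18.0%. Of 22 genes activated by PAX5 and EBF1, all tested, 11 were above 0 and 11 below, with a median of -0.03 and 4 at an unadjusted p under 0.05. Cd79b, a signalling chain of the B cell receptor, was read at 2340, 2580 and 3250 CPM in WT and 1210, 2310 and 1630 CPM in KO (-0.67, SE 0.26, edgeR adjusted p = 0.334), and its partner Cd79a had a fitted log2 change of -0.48 (SE 0.21). Both had groups that did not overlap. Cd72, an inhibitory coreceptor gene, was read at 97.2, 95.2 and 112 CPM in WT and 305, 145 and 150 CPM in KO (0.98, SE 0.29, edgeR adjusted p = 0.26) and had a value of 0.53 without KO 1. Cd55, which encodes a complement regulator, went from 1.10 (SE 0.42) to 0.53 without that library.

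Of 14 genes repressed by PAX5, 11 were tested and 10 were above 0, with a median log2 fold change of 0.84 that was 0.47 without KO 1. Of these, 5 had an unadjusted p under 0.05, all higher, beside 7.10% of all genes tested that were higher at this threshold. Grap2, a T cell adaptor gene, was read at 11.3, 13.3 and 10.9 CPM in WT and 42.1, 23.1 and 20.9 CPM in KO (1.27, SE 0.31, edgeR adjusted p = 0.184). Ly6a, which encodes the stem cell antigen Sca-1, was read at 150, 195 and 159 CPM in WT and 413, 274 and 262 CPM in KO (0.91, SE 0.23, edgeR adjusted p = 0.197). Both were highest in KO 1 and had no overlap between groups. Csf1r, the macrophage receptor, was the 1 gene below 0 (-0.38, SE 1.66), and it had 405 CPM in WT 3 and 440 CPM in KO 3, the libraries with the most macrophage marker RNA. The list also shares Prdm1, Xbp1 and Jchain with the plasma cell markers, whose 11 tested genes had a median of 0.20. Follicular B cell markers had a median of 1.04, with 11 of 12 above 0, and germinal centre markers one of -0.29, with 11 of 12 below 0. The follicular marker below 0 was Il4ra (-0.95, SE 0.22, edgeR adjusted p = 0.17). The part of these markers in the PAX5 list was not tested. Flt3 and Emb were named after their values were seen. Flt3, a progenitor cytokine receptor gene, was read at 57.8, 73.7 and 72.0 CPM in WT and 86.7, 145 and 132 CPM in KO (0.84, SE 0.24, edgeR adjusted p = 0.232). Emb, which encodes the adhesion protein embigin, was read at 21.5, 24.6 and 17.1 CPM in WT and 21.9, 73.7 and 77.3 CPM in KO (1.44, SE 0.46, edgeR adjusted p = 0.291). Emb was the 1 gene of the list that passed without KO 1, a fit in which 24 genes passed over the table. For both genes KO 1 was the lowest KO library, unlike for Grap2 and Ly6a. Pax5 itself had a fitted log2 change of 0.30 (SE 0.24), or 0.06 with the GC and length trend removed. The part of Pax5 in the values of this list was not tested.

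Of 19 genes of the FOXO1 response, 18 were tested and 13 were above 0, with a median of 0.48 that was 0.23 without KO 1. Trib1, which encodes a pseudokinase, was read at 3.15, 5.67 and 5.92 CPM in WT and 8.66, 10.3 and 13.1 CPM in KO (1.12, SE 0.37, edgeR adjusted p = 0.284), and Gabarapl1, an autophagy gene, had a fitted log2 change of 1.16 (SE 0.39). Ccnd3, the D cyclin of dark zone cells, was read at 561, 365 and 523 CPM in WT and 250, 359 and 276 CPM in KO (-0.71, SE 0.23, edgeR adjusted p = 0.284), and Bnip3, a mitophagy receptor gene, had -0.88 (SE 0.50). The list shares genes such as Klf2, S1pr1 and Ccr7 with the follicular B cell markers. Those 12 markers had a median of 1.04, and of 0.52 without KO 1, while the 12 tested germinal centre markers had a median of -0.29 with 11 below 0. Their part in the FOXO1 list was not tested.

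Of 16 genes repressed by BACH2, 14 were tested, 5 above 0 and 9 below, with a median of -0.28. With single libraries left out the median ran from -0.54 (KO 3 left out) to 0.12 (WT 3 left out), with 0.04 when KO 2 was left out, and the list shares genes such as Csf1r, Hmox1 and Cebpb with the macrophage markers. Prdm1, the plasma cell regulator, had a fitted log2 change of 2.30 (SE 0.77, edgeR adjusted p = 0.305), with 26.9 CPM in KO 1, 14.3 in KO 3 and 3.18 in KO 2, the last within the WT range of 1.56 to 4.20. Without KO 1 the value was 1.54. Txnrd1, a thioredoxin reductase gene, had 0.40 (SE 0.22), Fth1, the ferritin heavy chain, -0.42 (SE 0.27), or -0.20 without KO 1, and Cdkn1a, a cell cycle inhibitor gene, -0.59 (SE 0.45), or -0.21 without WT 1. For 11 tested genes activated by MEF2 the median was 0.24 with 0 at an unadjusted p under 0.05, and it was 0 without KO 3 and -0.02 without WT 3 and KO 3. Jun, an AP-1 subunit gene, was read at 14.2, 1.76 and 4.05 CPM in WT and 60.4, 27.7 and 8.15 CPM in KO (2.28, SE 1.08, edgeR adjusted p = 0.466), with 1.43 without KO 1 and 3.50 without WT 1. Klf2, a quiescence and trafficking factor gene, had 1.29 (SE 0.78), and 0.19 without KO 1. Eif4ebp2, which encodes a translation repressor, had -0.13. For the 15 genes activated by IRF8, PU.1 or SPIB, all tested, the median was -0.08, with 5 above 0, and it shares Cd72 and Cd79a with the genes activated by PAX5 and EBF1. Mdm2, which encodes the p53 ubiquitin ligase, had 0.41 (SE 0.21), or 0.24 without KO 1, and the kinase gene Blk -0.36 (SE 0.21).

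**Figure D5:**
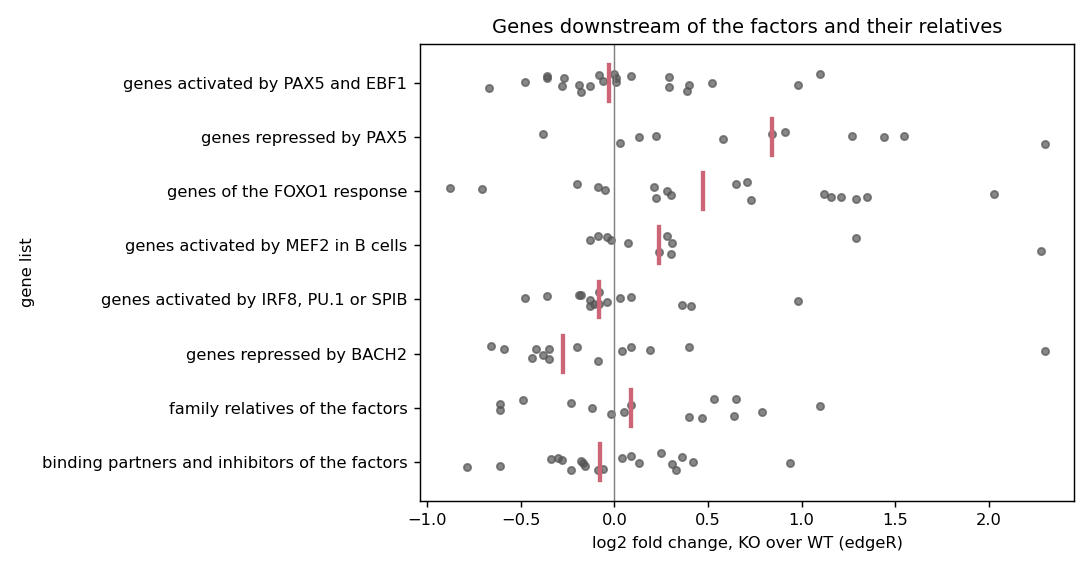
Horizontal axis, log2 fold change KO over WT; each point is 1 tested gene of the list named on the vertical axis and red bars mark list medians. The bar for genes repressed by PAX5 lies at 0.84 and that for the FOXO1 response at 0.48, while genes activated by PAX5 and EBF1 centre on -0.03.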

How the data were processed

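The values used are raw counts of reads for each gene symbol, which the authors deposited as a single table of 6 libraries. The submitters' processing notes name CASAVA, STAR 2.5.2, featureCounts 1.5.2 and build mm10. Annotation, strand setting and handling of shared reads: not given in the sources used here. Groups and replicate numbers came from the sample titles. The test was edgeR 4.0.16 in R 4.3.3 (filterByExpr, TMM, robust quasi-likelihood fit, two-sided, adjusted over all 10926 genes tested, threshold 0.05). Each SE was taken from the fold change and its F statistic, and CPM used TMM-scaled totals of the tested genes. Without molecular identifiers, intervals and floors from counts cover counting error only. In CPM, 1 count equalled 0.195 to 0.312 (WT) or 0.0706 to 0.0759 (KO). The common biological coefficient of variation was 30.8%. Alternatives were other scalings and filters, DESeq2 1.42.0, limma-voom (limma 3.58.1), a replicate block, thinning, and libraries left out. Removal of a spline trend on GC content and length (GENCODE vM21, 98.4% of tested genes matched) and gene lists with libraries left out were added after the data were seen. The main edgeR fit, DESeq2, limma-voom, the trend removal and the replicate block were also run on simulated data. The other alternatives were not. Pairs of the same group differed far beyond sampling noise (chi-square per degree of freedom 14.4 to 50.9), so all 6 libraries were counted singly. Members and gene lists were chosen with earlier results of these data known. The text names all 10 factors, Kdm1a, the genes of the 9 ratios and the 2 genes of smallest p in each direction per list. It also names the 2 nearest genes of the 3 factors with the smallest p. For markers of other cell types the rule was the 3 of highest CPM, given as sums where they add nothing. The follicular, germinal centre and B cell marker lists are given mainly as sums, counts or medians, without most of the genes this rule picks. Cd3d, Cd3g, Siglech and genes shared between lists were named outside these rules. The text says where any other gene was chosen after its values were seen.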

Additional observations from a re-analysis of the deposited data

How the results depend on the processing

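None of the 9 tested factors passed in any of the 17 alternatives. Without WT 2, 3 of the 9 had an unadjusted p under 0.05 (edgeR), beside 2555 of the 11586 genes tested in that fit. These were Tcf3 (-0.52), Spib (-0.51) and Mef2c (0.71). The number of genes passing over the table, 9, was 18 with library size alone, 93 without a filter, 122 by DESeq2, 2 by limma-voom, 21 with the replicate block, 21 with the GC and length trend removed, 1 without WT 3 and KO 3, and 1 to 24 when single libraries were left out. The median log2 fold change of the factors, 0.09, was -0.2 without WT 3 and KO 3, -0.16 with the trend removed, and -0.11 to 0.24 when single libraries were left out. Signs turned for Bach2 without WT 3 (-0.09), without KO 3 (-0.11), without WT 3 and KO 3 (-0.28) and with the trend removed (-0.21). They turned for Foxo1 without WT 2 (-0.02), WT 3 (-0.08), KO 3 (-0.04), WT 3 and KO 3 (-0.2) and with the trend removed (-0.23). They turned for Tcf3 without WT 1 (0.02) and with the trend removed (0.01), for Pou2af1 without WT 1 (0.05) and with library size alone (0.02), and with the trend removed for Ebf1 (-0.16) and Mef2c (-0.01). The Mef2b to Mef2c ratio turned without WT 1 (0.43) and without KO 3 (0.03). With single libraries left out the ranges were -0.52 to 0.02 for Tcf3, -0.11 to 0.29 for Bach2, -0.08 to 0.39 for Foxo1 and -1.21 to 0.43 for that ratio. The cause was not tested. Whether equal replicate numbers pair the mice is not given in the sources used here, and the main fit used no block. Deviations of same-numbered WT and KO libraries correlated by 0.34, -0.05 and 0.44, and those of different-numbered libraries by -0.45 to 0.2. With the block the members' median was 0.1 and 0 members passed. Depth limits Mef2b most, with an interval of 0.342 to 113 on its ratio.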

Other observations

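Other windows of the set held further matches, given as letters only. An Ebf1 window on chromosome 11 (start 44617850) holds an interferon response element match at -155, an Irf8 window on chromosome 8 (start 120738389) an E-box CAGGTG at -205, and the third Mef2c window (start 83573357) TGAATCA at -137. The Ets core GAGGAA stood in 3 windows, in the second Ebf1 window (start 44619978) at -130 and in the other two Mef2c windows at -122 and -186. The windows of Pax5, Tcf3, Spib and Pou2af1 held none of the letters searched.

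The KO libraries spread less than the WT libraries for 7 of the 9 tested factors, and for 62.1% of all genes tested. The WT libraries have fewer counts, whose part was not tested.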
